A study of Mus musculus with 4 samples.

Results

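The effect of diabetes on kidney transcripts was compared between FVB/N and C57BL/6, which are inbred strains of laboratory mice. For each gene, the diabetic minus control value of C57BL/6 was subtracted from the diabetic minus control value of FVB/N. A positive result means that the diabetic library stood higher against its own control in FVB/N than in C57BL/6, and a negative result the reverse. All 4 libraries of the series enter every value, and 9201 of 15967 measured genes were used, those whose brightest probe had a mean of at least 5.49 log2 over the libraries, the median of all probes. Just above this minimum lay Gm5089, at 6.04, 5.10, 5.21 and 5.59 in the C57BL/6 diabetic, C57BL/6 control, FVB/N diabetic and FVB/N control libraries, and Fign. Just below lay Resp18, at 5.54, 5.45, 5.38 and 5.58 in the same order, and Mpp3.

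The groups were C57BL/6 diabetic, C57BL/6 control, FVB/N diabetic and FVB/N control, with 6 kidneys each and 1 column of values per group, called a library here. The mice, which included males and females, were 8 weeks old, had been diabetic or under control treatment for 21 days, and the controls had received saline. The labels name no agent that caused diabetes and give no glucose values, and they do not say whether a library pools the 6 kidneys. A single library stands for each group, which leaves the spread among animals unknown. No test could be made, and every difference is that of 4 single libraries.

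Kidneys filter glucose freely, and proximal tubules reabsorb it. In diabetes the filtered glucose exceeds this capacity, urine volume rises, and the tubule meets a larger load of solute, while lack of insulin shifts fuel use from sugar towards fat. Inbred mouse strains differ in how strongly diabetes damages the kidney, and a difference of differences asks which transcripts respond unequally on 2 genetic backgrounds.

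Kidney transcripts were present in all 4 libraries. Umod, which encodes the most abundant urinary protein and marks the thick ascending limb, read 12.64 and 12.04 in C57BL/6 control and diabetic kidneys and 12.52 and 12.48 in FVB/N. The FVB/N diabetic library stood apart from the others. It was the library farthest from the median of the other 3 for 45.0% of expressed genes, against 22.3% for C57BL/6 diabetic, 15.7% for C57BL/6 control and 17.0% for FVB/N control. No difference of differences can be formed without it. In 1372 genes with 2 expressed probes, the second brightest probe read a median of 1.34 log2 below the brightest in the FVB/N diabetic library and 1.53 to 1.55 below it in the other libraries. The part of this shift in the results below was not tested.

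Across the 9201 genes the difference of differences had a median of -0.09 log2 and a standard deviation of 0.65, with quartiles at -0.46 and 0.32. The standard deviation of the diabetes difference was 0.39 in C57BL/6 and 0.55 in FVB/N. By a threshold of 2-fold, 560 genes (6.09%) were higher in FVB/N, 522 (5.67%) were lower, and both together made up 11.8%. The same threshold on the diabetes difference within a strain gave 4.05% higher and 2.18% lower in FVB/N, and 1.03% higher and 0.989% lower in C57BL/6. The upper tail was longer, with 40 genes past 4-fold on the higher side and 13 on the lower side. Of the 560 higher and 522 lower genes, 152 and 116 had a library below the expression minimum. How many of all 9201 genes had such a library was not counted. With loess centring of each strain's differences on intensity the counts were 691 higher and 376 lower, so that higher genes made up 64.8% of the calls instead of 51.8%. When the genes were cut into 3 equal classes by mean level, 7.69% of the dimmest class were higher and 6.29% lower, 7.04% and 8.02% of the middle class, and 3.52% and 2.71% of the brightest class.

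Most of these genes differed from control by 1.5-fold in FVB/N alone. At that threshold 12.4% of the 9201 genes lay above control and 13.9% below in diabetic FVB/N kidneys, and 6.14% and 6.35% in diabetic C57BL/6 kidneys. Of the 560 higher genes, 359 (64.1%) differed at least 1.5-fold between diabetic and control in FVB/N and less than that in C57BL/6, and 103 (18.4%) did so in C57BL/6 and not in FVB/N. Another 79 (14.1%) were higher in diabetic FVB/N and lower in diabetic C57BL/6. Among the 522 lower genes the corresponding numbers were 286 (54.8%), 145 (27.8%) and 60 (11.5%), the last with FVB/N lower and C57BL/6 higher. Seen from the strains, 489 of the 1082 genes were at least 2-fold apart between FVB/N and C57BL/6 in the diabetic libraries and not in the controls, while 74 were so in the controls and not in the diabetic libraries. For 493 neither strain gap reached 2-fold. The share of all 9201 genes with such gaps was not counted. Over all of them the standard deviation of the strain gap was 0.68 in the diabetic and 0.49 in the control libraries. These values include the 1082 genes, so they do not show whether the gap was wider in the other genes too.

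**Figure D1:**
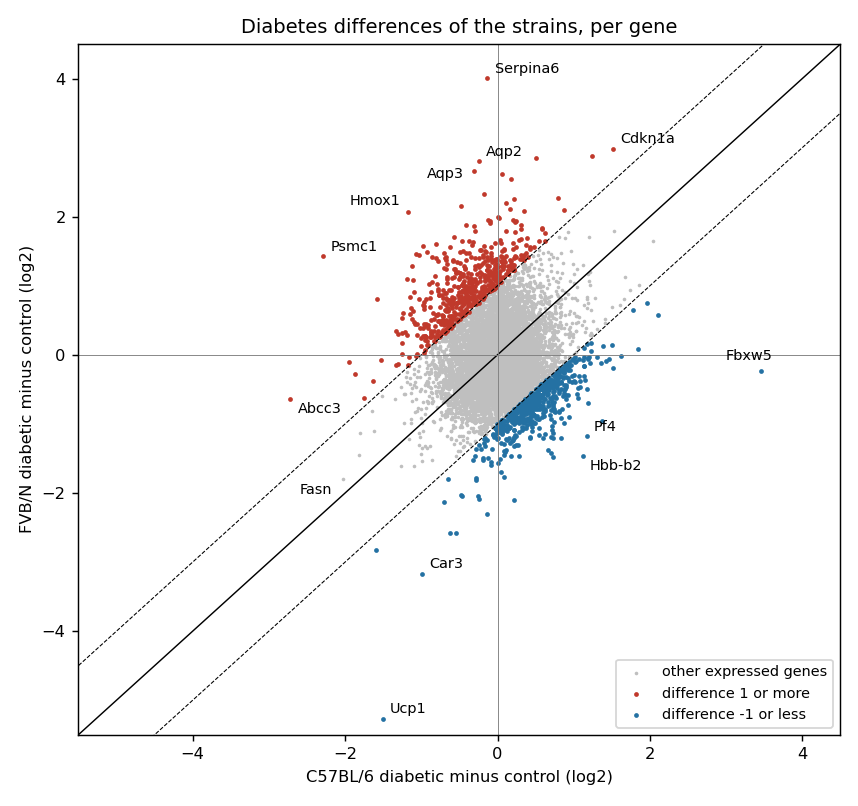
Each point is an expressed gene; the x axis gives diabetic minus control in C57BL/6 and the y axis the same in FVB/N, both in log2 units. The solid line marks equal differences and the dashed lines a difference of differences of 1 and -1; 560 red genes lie above the upper dashed line and 522 blue genes below the lower one, with Serpina6 and Ucp1 at the extremes.

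Serpina6, which encodes corticosteroid-binding globulin, the plasma carrier of glucocorticoids, had the largest positive value of all expressed genes. It read 4.68 in control and 4.55 in diabetic C57BL/6 kidneys, 5.04 in control FVB/N kidneys and 9.05 in diabetic FVB/N kidneys. The FVB/N diabetic library was the only one of the 4 above the expression minimum. The difference of differences was 4.14 log2, and 3.56 with values below the minimum raised to it.

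Water channels of the collecting duct came next after Psmc1 and Hmox1, which are described below. Aqp2, the vasopressin-regulated channel of the luminal membrane, read 7.67 and 7.43 in control and diabetic C57BL/6 kidneys and 7.83 and 10.64 in FVB/N. Aqp3, a channel through which water leaves the same cells on the blood side, read 5.99 and 5.68 in C57BL/6 and 5.30 and 7.96 in FVB/N. For both genes the C57BL/6 libraries and the FVB/N control library lay close together, and the FVB/N diabetic library stood above them. The differences of differences were 3.05 and 2.97.

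Promoter sequences, from 250 bases before to 50 after the transcription start in RefSeq annotation of GRCm38.p6, are given for these channels and for Ucp1 and Fbxw5, the genes with the largest negative values, described below. They are shown as examples, and their GC contents overlap, at 56.0% and 64.0% for the channels and 64.7% and 57.3% for Ucp1 and Fbxw5. Capitals mark the E-box CACGTG and the GC box GGGCGG, searched on both strands.
Aqp2, chr15:99578806-99579105, plus strand: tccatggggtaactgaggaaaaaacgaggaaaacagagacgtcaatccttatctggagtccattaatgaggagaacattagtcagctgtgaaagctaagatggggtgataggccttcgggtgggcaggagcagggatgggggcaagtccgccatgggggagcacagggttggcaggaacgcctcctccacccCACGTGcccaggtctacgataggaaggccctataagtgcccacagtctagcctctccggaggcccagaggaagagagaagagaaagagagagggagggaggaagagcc
Aqp3, chr4:41098134-41098433, minus strand: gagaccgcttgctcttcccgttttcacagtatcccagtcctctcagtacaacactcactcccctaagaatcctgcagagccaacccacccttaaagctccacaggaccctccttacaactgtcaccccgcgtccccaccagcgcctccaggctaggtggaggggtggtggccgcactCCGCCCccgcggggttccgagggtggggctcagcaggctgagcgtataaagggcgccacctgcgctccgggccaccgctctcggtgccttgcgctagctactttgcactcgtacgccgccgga
Ucp1, chr8:83290098-83290397, plus strand: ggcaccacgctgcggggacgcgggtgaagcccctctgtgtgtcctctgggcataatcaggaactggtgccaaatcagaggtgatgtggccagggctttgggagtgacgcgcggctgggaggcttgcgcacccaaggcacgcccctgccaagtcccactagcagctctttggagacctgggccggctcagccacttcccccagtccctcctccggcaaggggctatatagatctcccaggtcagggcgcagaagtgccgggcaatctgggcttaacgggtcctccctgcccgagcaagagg
Fbxw5, chr2:25500500-25500799, plus strand: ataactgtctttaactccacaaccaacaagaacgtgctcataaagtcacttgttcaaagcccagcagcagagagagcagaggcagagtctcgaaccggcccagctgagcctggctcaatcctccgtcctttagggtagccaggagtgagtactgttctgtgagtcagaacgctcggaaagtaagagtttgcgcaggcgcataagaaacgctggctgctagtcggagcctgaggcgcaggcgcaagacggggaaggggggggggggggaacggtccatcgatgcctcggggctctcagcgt
The Aqp2 window holds 1 E-box and the Aqp3 window 1 GC box, and neither motif is found in the Ucp1 and Fbxw5 windows.

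Over all genes the promoters of the lower group were poorer in G and C. Of the expressed genes, 7487 had a promoter in the table, and the median GC content was 60.0% for all of them, 60.7% for 451 higher genes and 57.7% for 433 lower genes. The GC box was present in 60.2% of all promoters, 63.2% of the higher and 50.3% of the lower group, and the E-box in 10.1%, 11.3% and 7.16%. Shares of the CCAAT box were 37.9%, 41.0% and 37.9%, and those of TGACNNNGC, a short form of the antioxidant response element, 14.4%, 15.3% and 14.1%. The median difference of differences was -0.18 in the lowest of 3 classes of promoter GC content and -0.05 in the highest. These shares are descriptions of letters and say nothing on which factor acts.

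Psmc1 and Hmox1 owed their place to libraries of both strains. Psmc1, an ATPase of the proteasome's regulatory particle, read 7.93 and 5.64 in control and diabetic C57BL/6 kidneys and 6.74 and 8.17 in FVB/N, a difference of differences of 3.72. Hmox1, the inducible heme oxygenase, read 10.19 and 9.01 in C57BL/6 and 9.08 and 11.14 in FVB/N, a value of 3.24. For both genes the control library was the higher one in C57BL/6 and the lower one in FVB/N.

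Of the other genes in the top 15, Pfkp, the platelet-type phosphofructokinase of glycolysis, stood at 2.63, with 5.69 and 5.21 in control and diabetic C57BL/6 kidneys and 5.27 and 7.42 in FVB/N, and at 1.498 as the mean of its probes. Pappa, a protease that frees insulin-like growth factors from binding proteins, stood at 2.51, and Ogfod2 at 2.55. Their C57BL/6 values differed by 0.18 and 0.06 between control and diabetic, less than in FVB/N, at 2.33 and 2.61. Sf3b3, a component of the U2 spliceosome particle, was at 2.53, the linear-ubiquitin ligase gene Rnf31 at 2.47, Samd4b at 2.41, Top3b, a topoisomerase, at 2.40 and Pigu, needed to attach lipid anchors to proteins, at 2.39. Each of these was lower in diabetic than in control C57BL/6 kidneys, by 0.92 to 1.58 log2, and higher in FVB/N. Spint2, an inhibitor of serine proteases, at 2.56 and the adenylyl cyclase Adcy6 at 2.41 each had a second expressed probe that read -0.39 and -0.22.

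At the other end was Ucp1, the uncoupling protein of brown fat. It read 10.87 and 9.36 in control and diabetic C57BL/6 kidneys and 10.20 and 4.93 in FVB/N, so it was lower in both diabetic libraries and near background in that of FVB/N. The difference of differences was -3.76 on the log2 scale, while on the linear intensity scale it was 66.9 and thus of the opposite sign. With the strains scaled to equal spread it was -2.75, behind Fbxw5 at -4.41. Car3, a carbonic anhydrase abundant in fat and muscle, read 10.42 and 9.43 in C57BL/6 and 11.06 and 7.89 in FVB/N, a value of -2.18, which was -1.25 as the mean of its probes and -1.55 with equal spread. In these bulk samples fewer cells of a type and less RNA per cell cannot be told apart.

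Fbxw5, a substrate receptor of a ubiquitin ligase, owed its -3.69 to C57BL/6, with 7.08 in control and 10.54 in diabetic kidneys against 5.83 and 5.60 in FVB/N. The FVB/N libraries lay near the expression minimum. Pf4, platelet factor 4, was at -2.35, with 6.06 and 7.23 in C57BL/6 and 7.22 and 6.04 in FVB/N, a mirror image.

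Other genes of the lower end were high in the FVB/N control library or low in the FVB/N diabetic one. Itih1, a hyaluronan-binding plasma protein, read 7.09 and 7.31 in control and diabetic C57BL/6 kidneys and 9.42 and 7.32 in FVB/N, at -2.32. Tprg at -2.03 and the lipid droplet enzyme gene Pnpla3 at -1.95 shared this pattern, with FVB/N controls at 8.88 and 8.71 and no other library above 6.44 and 6.14. Slc22a26, a kidney organic anion transporter, read 8.31 and 8.18 in C57BL/6 and 8.61 and 6.32 in FVB/N, at -2.17. Bphl, a serine hydrolase, stood at -2.13, the guidance molecule gene Sema3c at -2.04, Glod4 at -2.04 and Gas2 at -1.93, and all of them were higher in diabetic than in control C57BL/6 kidneys by 0.66 to 0.83 and lower in FVB/N by 1.20 to 1.42.

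**Figure D2:**
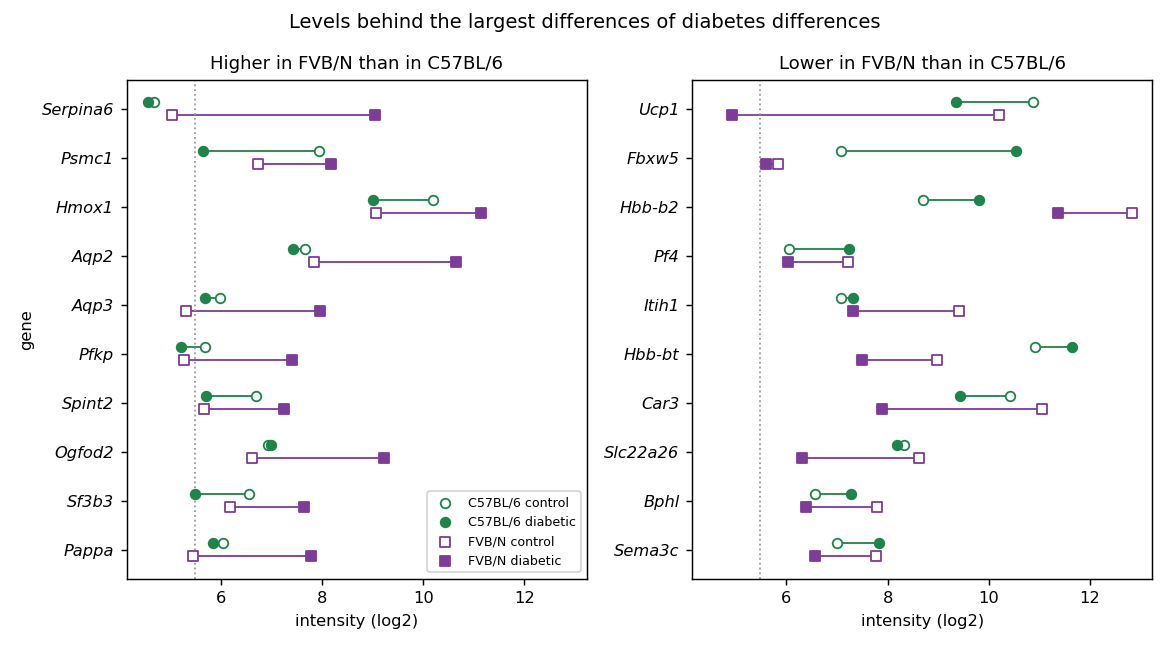
The x axis gives log2 intensity for the 10 genes with the largest positive value (left) and the 10 with the largest negative value (right); open symbols are control and filled symbols diabetic libraries, circles C57BL/6 and squares FVB/N, with a line joining the libraries of a strain, and the dotted line is the expression minimum of 5.49. Aqp2 is above 7.83 in the FVB/N diabetic library alone, whereas Psmc1 and Hmox1 run in opposite directions in the strains.

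A second probe for the same gene shares the RNA but is a separate measurement on the array. Across 1372 genes with 2 expressed probes, the differences of differences of the probes had a Pearson correlation of 0.21, and values of single probes spread with a standard deviation of 0.58 log2. Of 74 higher genes with a second probe, it had the same sign for 50 and was at least 2-fold higher for 25, with a median of 0.61 against 1.25 for the brightest probe. Of 54 lower genes, the second probe had the same sign for 28 and was at least 2-fold lower for 4, with a median of -0.04 against -1.12. Over all 1372 genes, 12.5% of second probes were at least 2-fold higher and 3.86% lower, and 5.39% and 3.94% of the brightest probes. Second probes leaned to positive values over all these genes, with 58.5% above 0, against 67.6% for the higher and 48.1% for the lower genes.

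Genes whose probes pointed the same way were spread over many functions. The highest by the smaller of their 2 values were Ugt1a2, a glucuronosyltransferase that conjugates drugs, at 1.52 and 2.03, and Selenbp1, a selenium-binding protein, at 1.41 and 1.58. Selenbp1 read 11.69 and 11.57 in control and diabetic C57BL/6 kidneys and 11.77 and 13.06 in FVB/N. Eef2 and Eif5a, factors of translation elongation, were at 1.39 and 1.46 and at 1.26 and 1.70, and the fatty acid elongase Elovl1 at 1.38 and 2.54. Cdkn1a, which encodes the cell-cycle inhibitor p21, was at 1.47 and 1.30, Cyp2d26 at 1.35 and 2.07, and the phosphatase gene Ptpn11 at 1.25 and 1.74. Srsf3, a splicing factor, led the lower side at -1.64 and -1.96, with 8.29 and 8.46 in C57BL/6 and 8.29 and 6.82 in FVB/N. After it came the integrin gene Itgae at -1.10 and -1.37, the mitochondrial release factor gene Mtrf1 at -1.16 and -1.04, Orc4, of the replication origin complex, at -1.03 and -1.36, and St7l at -0.98 and -1.34. The sorting nexin Snx5, the transcription factor Elf2 and the chemokine Cxcl14 had values between -0.97 and -1.12 on their 2 brightest probes, and Elf2 came to -0.35 as the mean of all its probes.

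**Figure D3:**
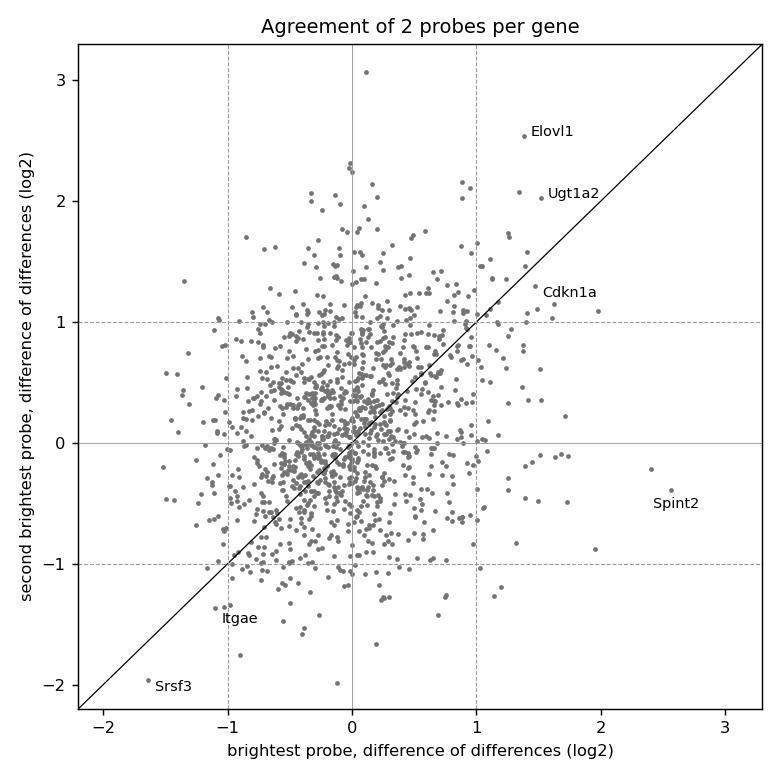
Each point is 1 of 1372 genes with 2 expressed probes; the x axis gives the difference of differences by the brightest probe and the y axis by the second brightest, in log2 units, with dashed lines at 1 and -1 and a solid line of equality. More points lie above 1 on the y axis (12.5%) than below -1 (3.86%), and Spint2 is high on the x axis with a second probe at -0.39.

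The members of each list below were counted when the strains differed by at least 1.5-fold. By this measure 15.5% of the 9201 genes were higher in FVB/N, 18.6% lower and 34.1% either, with the median of -0.09, and each list is to be read beside these. In short lists 1 gene moves these shares a great deal, as with 7.1% in a list of 14 members and 20.0% in a list of 5.

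Water and salt handling of the collecting duct had 7 of 15 members higher and 0 lower, with a median of 0.48. The median lay at 0.59 for the diabetes difference in FVB/N and -0.12 in C57BL/6. Beside the aquaporins, Hsd11b2, the enzyme that shields the mineralocorticoid receptor from glucocorticoids, read 7.69 and 7.14 in control and diabetic C57BL/6 kidneys and 7.06 and 8.27 in FVB/N, a value of 1.75. The kinase Wnk1, a regulator of sodium chloride transport, stood at 1.38, and at 0.55 as the mean of its probes. Principal cell markers, which share 9 of their 11 members with this list, had 4 higher and 0 lower and a median of 0.42, or 0.21 with the strains scaled to equal spread. The water channel Aqp4, one of them, stood at 0.99, and was lower in diabetic than in control C57BL/6 kidneys by 0.84.

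Among osmolyte and urea genes 5 of 7 expressed members were higher and 1 lower, with a median of 0.66. Slc6a12, which brings the osmolyte betaine into medullary cells, read 6.00 and 6.80 in control and diabetic C57BL/6 kidneys and 7.85 and 10.12 in FVB/N. It was thus higher with diabetes in both strains, by 0.80 and 2.27. Nfat5, the transcription factor of the osmotic response, was at 1.17, with 8.21 and 7.38 in C57BL/6 and 8.12 and 8.46 in FVB/N, and at 0.51 as the mean of its probes. Slc38a2, an amino acid transporter, was at 0.75 with -0.20 on its second probe.

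Markers of other tubule segments and of intercalated cells stood closer to the median of all genes, whereas the podocyte median was near that of principal cells. The thick ascending limb list had 1 of 7 members higher, Ppp1r1b at 1.02, and 0 lower. In the distal convoluted tubule list 2 of 6 were higher and 1 lower, with the kinase Wnk4 at 0.94, the sodium chloride cotransporter Slc12a3 at 0.65 and the calcium buffer Pvalb at -1.01. Intercalated cells had 1 of 8 higher, the transcription factor Foxi1, and 1 lower, the ammonia channel Rhbg at -0.68. Foxi1 read 6.45 in diabetic FVB/N kidneys and at most 5.48 elsewhere, below the expression minimum. Of the S1 and S2 segments of the proximal tubule 2 of 11 markers were higher, the bicarbonate cotransporter Slc4a4 at 1.52, with 0.35 on its second probe, and the neutral amino acid transporter Slc6a19 at 1.10, and 2 lower, Gatm of creatine synthesis at -1.46 and the organic anion transporter Slc22a8 at -0.66. The S3 segment had 0 of 7 higher and 2 lower, and all 7 values were below 0. Its lowest member, the transporter Slc7a12, read 11.43 in the C57BL/6 libraries and the FVB/N controls and 9.87 in diabetic FVB/N kidneys. Podocyte markers had a median of 0.41 but 0 of 6 members at 1.5-fold, the largest being Podxl, a surface sialoprotein, at 0.55.

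Antioxidant genes under the regulator NRF2 had 6 of 21 members higher and 1 lower, with a median of 0.29, or 0.12 with the strains scaled to equal spread. After Hmox1 came Gclc, the catalytic subunit of the first step of glutathione synthesis, with 8.49 and 7.79 in control and diabetic C57BL/6 kidneys and 7.71 and 8.98 in FVB/N, a value of 1.96. The quinone reductase Nqo1 was at 1.40, and Fth1, the heavy chain of ferritin, at 1.01. Fth1 read 13.99, 14.03 and 13.87 in the C57BL/6 control, C57BL/6 diabetic and FVB/N control libraries and 14.92 in diabetic FVB/N kidneys. Enzymes of phase II conjugation had 10 of 22 members higher and 0 lower, a share of 45.5% where 15.5% of all genes were higher. Their median was 0.48, or 0.28 with the strains scaled to equal spread. The glutathione transferases Gstm6 at 1.76, Gstt2 at 1.07 and Gsta4 at 0.76 and Ugt1a2 at 1.52 led. Gstm6 came to 0.59 as the mean of its probes, and the list shares Gsta1, Gsta2, Gsta4 and Gstm1 with the antioxidant list.

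Cytochrome P450 genes of families 2 and 4 had 5 of 15 higher and 2 lower. Cyp4a12a, a fatty acid hydroxylase of male kidneys, stood at 2.38, with 6.29 and 6.46 in control and diabetic C57BL/6 kidneys and 5.88 and 8.43 in FVB/N. Cyp4f14 was at -1.57 and Cyp2b10 at -1.08.

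The tubular injury list had 6 of 14 members higher and 3 lower, a median of 0.23, or 0.06 after quantile normalization. Lcn2, the injury marker neutrophil gelatinase-associated lipocalin, read 6.42 and 7.66 in control and diabetic C57BL/6 kidneys and 6.38 and 9.26 in FVB/N, and Cdkn1a 5.86 and 7.38 in C57BL/6 and 6.05 and 9.03 in FVB/N. Both were higher with diabetes in each strain and their controls lay close together, so the values of 1.64 and 1.47 express a larger step in FVB/N. With the strains scaled to equal spread these came to 0.99 and 0.76. The lipid droplet coat gene Plin2 was at 1.28 and clusterin, Clu, at 0.97. The p53 list was split, with 3 of 9 members higher and 2 lower. Gadd45g, a stress sensor, stood at 1.68 and Trp53inp1 at 1.30, and Phlda3, a repressor of the kinase AKT, at -1.33 with 7.05 in diabetic C57BL/6 kidneys and no other library above 6.27.

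Immediate early genes had 5 of 14 higher and 1 lower. Egr1 was at 1.22 from a low FVB/N control of 8.34, against 9.36, 10.23 and 10.43 in the C57BL/6 control, C57BL/6 diabetic and FVB/N diabetic libraries. Jun stood at 1.36 and Junb at 1.16. Junb read 6.26 in diabetic FVB/N kidneys and at most 5.40 elsewhere, below the expression minimum. Klf4, a zinc finger factor of epithelial and endothelial cells, went the other way at -1.74, with 7.37, 7.41 and 7.74 in the C57BL/6 control, C57BL/6 diabetic and FVB/N control libraries and 6.04 in diabetic FVB/N kidneys. Its value was -0.51 as the mean of its probes. Glucocorticoid-responsive genes had 7 of 16 members higher and 3 lower, a median of 0.48. Serpina6 is one of them and counts as expressed through the FVB/N diabetic library alone. Fkbp5, a cochaperone of the glucocorticoid receptor, read 8.55 and 7.91 in C57BL/6 and 8.48 and 9.28 in FVB/N, at 1.44. Cdkn1a and Lcn2 are in this list too, and with the stricter filter the median was 0.06.

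**Figure D4:**
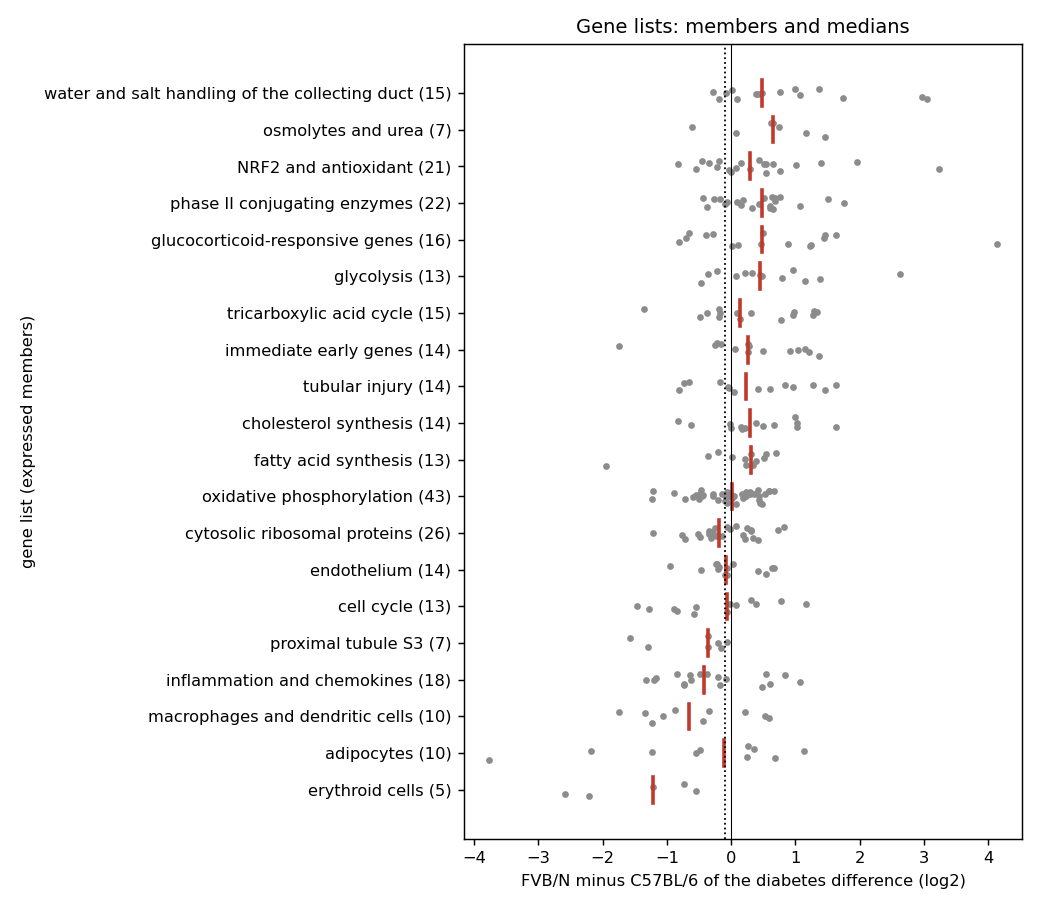
Each row is a gene list with its number of expressed members; grey points are members, red bars the list medians, and the x axis is the difference of differences in log2 units, with the dotted line at the median of all expressed genes, -0.09. Collecting duct, osmolyte, phase II, glycolysis and glucocorticoid lists have medians of 0.45 to 0.66, and the macrophage and erythroid lists medians of -0.66 and -1.21.

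Fuel metabolism showed unequal parts. Glycolysis had 5 of 13 members higher and 0 lower, a median of 0.45. Besides Pfkp, Aldoa, the aldolase of glycolysis, read 12.13 and 11.93 in control and diabetic C57BL/6 kidneys and 12.10 and 13.27 in FVB/N, at 1.38. The lactate dehydrogenase subunit Ldhb was at 1.15 and Khk, which phosphorylates fructose, at 0.96 with 0.87 on its second probe. In the tricarboxylic acid cycle 6 of 15 were higher and 1 lower. The higher ones included Idh3g, a subunit of isocitrate dehydrogenase, at 1.34, citrate synthase, Cs, at 1.29 and Ogdh of the oxoglutarate dehydrogenase complex at 1.28. Cs read 10.79, 10.57 and 10.65 outside the FVB/N diabetic library and 11.71 in it. Sucla2, a subunit of succinyl-CoA synthetase, was at -1.36, and at -0.59 as the mean of its probes.

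The respiratory chain did not share this pattern. Of 43 subunits of oxidative phosphorylation 3 were higher and 5 lower, 7.0% and 11.6%, below the shares of all genes, and the median was 0.01, or -0.03 with the strains scaled to equal spread. The largest were Atp5pb at -1.23, Cox7b at -1.21, Atp5k at -0.89 and Ndufc1 at -0.71, all with higher values in diabetic than in control C57BL/6 kidneys and lower values in FVB/N. Gluconeogenesis had 1 of 9 higher and 0 lower, Mdh1 at 0.81, whose second probe read -0.57. Pcx, which feeds pyruvate into glucose synthesis, was at 0.58. Ribosomal proteins had 2 of 26 higher and 3 lower.

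For fatty acid oxidation and PPAR-alpha targets 7 of 18 members were higher and 2 lower, a median of 0.28. The median diabetes difference was nevertheless lower in FVB/N, at -0.12 against -0.03 in C57BL/6. Pdk4, the kinase that turns off pyruvate dehydrogenase, read 8.31 and 8.37 in C57BL/6 and 7.72 and 9.01 in FVB/N, at 1.23, and Ppara itself stood at 1.09 near background. Fatty acid synthesis had 1 of 13 higher, the carboxylase Acaca at 0.71, and 1 lower, Pnpla3, and its median of 0.31 came with medians of -0.61 for the diabetes difference in C57BL/6 and -0.33 in FVB/N. Scd1, the stearoyl-CoA desaturase, read 13.48 and 11.87 in control and diabetic C57BL/6 kidneys and 13.71 and 12.62 in FVB/N, so that the step down was smaller in FVB/N by 0.52. Fasn, fatty acid synthase, chosen here after its values were seen, differed by 0.22 between the strains. Cholesterol synthesis had 5 of 14 higher and 2 lower, with the epoxidase Sqle at 1.63 from a FVB/N control of 8.54 against 9.29 to 9.99 elsewhere, and at 1.03 as the mean of its probes. The regulator Srebf2 was at 1.02 and Mvk, mevalonate kinase, at 1.03 near background.

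Genes that responded alike form the counterpart. In 111 of the 9201 genes the diabetic library was at least 1.5-fold higher in both strains and in 115 at least 1.5-fold lower. Within FVB/N 12.4% of all genes were higher and 13.9% lower by this threshold, and within C57BL/6 6.14% and 6.35%. The number that would coincide if the strains were unrelated was not counted. Of these, 84 and 100 differed by less than 1.5-fold between the strains. Over all 111 and 115 genes the median differences of differences were 0.10 and -0.08.

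Transporters of the proximal tubule were divided. In the amino acid list 6 of 18 were higher and 3 lower, with the glutamine transporter Slc38a3 at 1.69, near background outside the FVB/N diabetic library, and Slc7a7, which exports basic amino acids, at 1.24 and 1.36 on its probes. Slc7a7 read 8.57 and 8.26 in control and diabetic C57BL/6 kidneys and 9.38 and 10.31 in FVB/N. The lysosomal transporter Slc36a1 stood at -1.67, with 5.91 and 7.08 in C57BL/6 and 6.89 and 6.40 in FVB/N. For glucose, phosphate and organic ions 6 of 29 were higher and 4 lower, a median of 0.04. Abcc3, an efflux pump for organic anions, was at 2.08 because of C57BL/6, with 8.82 and 6.10 there and 7.78 and 7.14 in FVB/N. The dicarboxylate transporter Slc13a3 followed the same course at 1.19, with 10.37 and 9.04 against 10.32 and 10.17. Acid-base genes had 5 of 16 higher and 2 lower, with a median of -0.10 and 7 values above 0 against 9 below. The higher ones were led after Slc38a3 by the carbonic anhydrase Car15 at 1.67, then by Slc4a4, given above. The carbonic anhydrase Car4 followed at 1.06. The lower ones were the carbonic anhydrase Car12 at -0.62 and Rhbg at -0.68. Car15 read 11.12, 11.23 and 10.81 outside the FVB/N diabetic library and 12.60 in it.

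Hormone and growth factor genes held several large values. The insulin and IGF list had 4 of 17 members higher and 1 lower but a median of -0.12. Igf2r, the receptor that clears IGF2, read 6.97 and 5.88 in control and diabetic C57BL/6 kidneys and 7.10 and 8.01 in FVB/N, at 2.01. Eif4ebp3, a repressor of cap-dependent translation, was at 2.34 and the receptor Igf1r at 1.59. Igf1r read 6.62 in diabetic FVB/N kidneys and at most 5.47 elsewhere, below the expression minimum. In the renin-angiotensin list 3 of 8 were higher and 1 lower. Angiotensin-converting enzyme, Ace, stood at 1.25 through a low C57BL/6 diabetic value of 5.68 against 6.57 to 7.31 elsewhere, and the aminopeptidase Anpep at 0.89 likewise. For calcium, phosphate and vitamin D 2 of 10 were higher and 2 lower. The parathyroid hormone receptor Pth1r was at 1.11 and 1.10 on its probes and the vitamin D receptor Vdr at 0.78 and 0.73, whereas Cyp27b1, which makes active vitamin D, was at -1.31 near background. Of the circadian clock list 1 of 11 was higher, the repressor Cry2 at 1.93, and 2 lower, Nr1d2 at -1.41, with 0.57 on its second probe, and Dbp at -0.81. The zinc transporter Slc39a8 was at -1.76, with 7.38 in diabetic C57BL/6 kidneys against 5.54 to 6.24 elsewhere and a mean over its probes of -0.94, in a list with 1 of 12 higher and 3 lower.

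Matrix genes were evenly split, with 6 of 27 members higher and 7 lower. Ltbp4, which holds latent TGF-beta in the matrix, was at 1.85 from a C57BL/6 control of 7.32 against at most 5.87 elsewhere, and at 0.95 as the mean of its probes. The laminin chain Lamb2 stood at 1.39 and the basement membrane collagen Col4a3 at 0.97, and the fibrillar collagen Col3a1 at -1.25, with 8.97 and 9.75 in control and diabetic C57BL/6 kidneys and 8.63 and 8.16 in FVB/N. Col4a3 was above the expression minimum only in control C57BL/6 kidneys, at 6.07. The smooth muscle genes Mylk at 1.28 and Tagln at 1.24 were among 3 of 8 higher markers of mesangium, pericytes and smooth muscle, with 0 lower. Tagln was above the expression minimum only in diabetic FVB/N kidneys, at 6.26. Endothelial markers had 2 of 14 higher, Vwf at 0.67 and Ehd3 at 0.64, and 1 lower, the transcription factor Sox17 at -0.95.

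Proteasome subunits had 5 of 28 members higher and 4 lower and a median of 0.06. Against Psmc1 stood Psma5 at -1.41 and Psmc6 at -1.23, and Psmb5, a catalytic subunit, was at 1.15. Chaperones and genes of endoplasmic reticulum stress had 4 of 20 higher and 3 lower, with the disulfide isomerase Pdia4 at 1.65, low in diabetic C57BL/6 kidneys at 6.83 against 7.96 to 8.59 elsewhere, and Herpud1 at 1.27.

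Of macrophage and dendritic cell markers 5 of 10 expressed members were lower and 1 higher, the median being -0.66. The median diabetes difference was 0.52 in C57BL/6 and -0.24 in FVB/N. Adgre1, which encodes the macrophage surface protein F4/80, read 8.36 and 8.65 in control and diabetic C57BL/6 kidneys and 8.18 and 6.72 in FVB/N, at -1.75. Ctss, a lysosomal protease of antigen-presenting cells, read 8.96 and 9.51 in C57BL/6 and 8.63 and 7.85 in FVB/N, at -1.34. The chemokine receptor Cx3cr1 was at -1.22 and C1qc at -1.06. The other chains of C1q went the other way, with C1qb at 0.59 and C1qa at 0.54. Within FVB/N, 3 markers of the list were at least 1.5-fold higher with diabetes and 3 lower. Adgre1 came to -0.94 as the mean of its probes.

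Inflammation and chemokine genes had 8 of 18 members lower and 3 higher, a median of -0.42, and a median of 0.48 with the stricter filter, which left out the dim members. The median diabetes difference was positive in both strains and higher in FVB/N, at 0.36 against 0.21 in C57BL/6. Cxcl1, which attracts neutrophils, read 5.61 and 7.57 in control and diabetic C57BL/6 kidneys and 6.36 and 7.11 in FVB/N, at -1.21. The interferon-induced chemokine Cxcl10 was at -1.17 and near background in FVB/N at 4.73 and 4.79. Ccl28, a chemokine of mucosal epithelia, stood at -1.32, and Tnfrsf12a, the receptor of the cytokine TWEAK, at 1.08. Interferon-stimulated genes had 2 of 11 higher and 2 lower, complement 1 of 9 higher and 3 lower, and antigen presentation 3 of 12 higher and 0 lower, with the immunoproteasome subunit Psmb8 at 1.25 near background.

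In the cell cycle list 4 of 13 members were lower and 2 higher. Nusap1 and Cenpa, of the mitotic spindle and the centromere, were at -1.47 and -1.28, with diabetic C57BL/6 values of 7.71 and 8.83 against at most 6.41 and 7.85 elsewhere. Nusap1 came to -0.68 as the mean of its probes. Pcna, the sliding clamp of DNA replication, was at -0.89. Cyclin D1, Ccnd1, was at 1.16 and 0.77 on its probes, highest in diabetic FVB/N kidneys at 13.26 against 12.22 to 12.42 elsewhere. Of the 22 measured members 13 were expressed.

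All 5 expressed members of the erythroid list were below 0, 4 of them at least 1.5-fold, with a median of -1.21. Hbb-b2 read 8.69 and 9.81 in control and diabetic C57BL/6 kidneys and 12.82 and 11.36 in FVB/N, and Hbb-bt 10.91 and 11.64 in C57BL/6 and 8.97 and 7.50 in FVB/N, values of -2.58 and -2.21. These adult beta-globin genes thus ranked oppositely between the strains in level, while each was higher with diabetes in C57BL/6 and lower in FVB/N. Alas2, of erythroid heme synthesis, stood at -1.21 and the alpha-globin Hba-a1 at -0.73. The remaining member, Slc4a1 at -0.55, is also in the intercalated cell list. Its diabetes difference was negative in both strains, at -0.21 in C57BL/6 and -0.76 in FVB/N. In the adipocyte list 3 of 10 were lower, Ucp1, Car3 and the brown fat cytochrome oxidase subunit Cox8b at -1.23, and 2 higher, among them the droplet protein Cidec at 1.14. With 5 members above 0 and 5 below, the median was -0.12, close to that of all genes, and 0.12 with the strains scaled to equal spread, where Cox8b came to -0.52. Exocrine pancreas transcripts had 0 of 6 higher and 2 lower, Amy2a5 at -0.88 and Reg1 at -0.62. Adrenal gland and skeletal muscle markers were below the expression minimum for 9 of 11 and 7 of 8 measured genes. The part of blood, fat or pancreas in other values was not tested.

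The mice were of both sexes, and the labels do not give the sexes in each group. Of 6 measured Y chromosome genes 5 were below the expression minimum and Zfy2 read between 5.43 and 5.84, near background. The list of male-biased kidney genes had 8 of 13 members higher and 2 lower, a median of 0.66. Cyp4a12a and the dipeptidase Cndp2, at 1.46, were among the higher ones, and Kap, the androgen-regulated protein of the proximal tubule, read 15.04 and 14.79 in C57BL/6 and 15.03 and 12.95 in FVB/N, at -1.84. Timd2 was at -1.44. Female-biased genes had 3 of 10 higher and 4 lower, with Abcc3 at 2.08 and Slc7a12 and Cyp7b1 at -1.57 and -1.30. The part of sex in these values was not tested.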

How the data were processed

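Total RNA of kidneys was hybridised to Illumina mouse arrays, per the labels. The values deposited by the authors are read as log2 intensities, from 4.45 to 15.84. The columns have near-equal distributions, and the normalization, background correction and filter behind them are not given by the labels. No column of another series was present. Of 24613 probes, 20984 had exactly 1 gene symbol in the platform annotation, 1 had several and was left out, and 3628 were not annotated. Each gene was represented by its brightest probe. Differences were formed on the log2 scale with pandas 2.3.3 and numpy 2.4.6, and loess centring used statsmodels 0.14.6 with a span of 0.3. The calculation was tested on simulated data. With 1 array per group, the number of arrays limits precision and no p-value is given.

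Genes were named by rule: the 15 largest in each direction, the 8 in each direction with the largest agreement of 2 probes, the 6 largest in each order of opposite differences, and up to 4 per list. Names of gene models were skipped. The members and lists were chosen with earlier results of these data known. Alternatives were quantile normalization, median or loess centring, no or a stricter filter, the minimum in both strains, other probe choices, raised low values, strains scaled to equal spread and a linear scale. Promoters are from RefSeq, GRCm38.p6.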

Additional observations from a re-analysis of the deposited data

Results flagged for a closer look

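Of 235 expressed genes named by the rule, 29 were at least 1.5-fold apart between diabetic and control in each strain with opposite signs, so that the strains moved in opposite directions. The difference was not tested, since each group has 1 library. In 17 genes diabetes went with a higher value in FVB/N and a lower one in C57BL/6. Their differences of differences on the log2 scale were Psmc1 at 3.72, Hmox1 at 3.24, Spint2 at 2.56, Sf3b3 at 2.53, Rnf31 at 2.47, Samd4b at 2.41, Adcy6 at 2.41, Top3b at 2.40 and Pigu at 2.39, followed by Atn1 at 2.29, Ttyh3 at 2.20, Igf2r at 2.01, Gclc at 1.96, Cry2 at 1.93, Fkbp5 at 1.44, Fign at 1.44 and Ogdh at 1.28. In 12 genes the order was reversed, with Hbb-b2 at -2.58, Pf4 at -2.35, Hbb-bt at -2.21, Bphl at -2.13, Sema3c at -2.04 and Glod4 at -2.04, followed by Gas2 at -1.93, Rgs10 at -1.86, Alyref2 at -1.84, Scara5 at -1.74, Sucla2 at -1.36 and Rplp0 at -1.21. Genes not described above are Atn1, a transcriptional corepressor, with 6.53 and 5.34 in control and diabetic C57BL/6 kidneys and 5.58 and 6.68 in FVB/N, and Ttyh3, a membrane protein, with 6.41 and 5.29 and then 5.82 and 6.91. Rgs10, a regulator of G protein signalling, read 7.64 and 8.51 in C57BL/6 and 7.83 and 6.85 in FVB/N. Scara5, a receptor for ferritin, read 6.08 and 6.91 and then 6.61 and 5.70, and Alyref2, of messenger RNA export, 6.63 and 7.57 and then 7.04 and 6.15. Rplp0, a ribosomal stalk protein, read 8.75 and 9.35 in C57BL/6 and 8.91 and 8.29 in FVB/N, and -0.42 on its second probe. Among all 9201 expressed genes, 79 and 60 met this description in the first and second order. The naming rules favoured this trait, since they chose genes by opposite differences and by the largest differences of differences. The 29 of 235 thus give no rate for expressed genes.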

How the results depend on the processing

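The counts of 560 higher and 522 lower genes moved by more than 1.5 times in 2 settings, which use fewer genes. With the stricter filter at the 75th percentile, which leaves 5011 genes, they were 219 and 216. These are 4.37% and 4.31% of the genes used, against 6.09% and 5.67% as deposited. With the second brightest probe of 1372 genes they were 172 and 53. These are 12.5% and 3.86%, against 5.39% and 3.94% for the brightest probe of the same genes. In the other 8 settings the counts ran from 473 to 691 and from 376 to 563. The standard deviation over genes stayed within 1.5 times of 0.65 in all 10. Among named genes at least 1.5-fold apart as deposited, out of 235 named, 7 values changed sign: with the second probe Spint2 (-0.39), Adcy6 (-0.22), Slc38a2 (-0.20), Mdh1 (-0.57) and Nr1d2 (0.57), with all probes averaged Ppp1r1b (-0.006), and on the linear scale Ucp1 (66.9 intensity units). Sign changes of smaller values were not counted, and on the linear scale nothing but a change of sign was. A further 34 of 2270 gene values and 42 of 473 list medians moved by more than the spread of single probes, 0.58 for a gene and that over the square root of its size for a list. The male-biased median went from 0.66 to 0.32 and the macrophage median from -0.66 to -0.34 with no filter. Of 53 lists the inflammation and chemokine median turned from -0.42 to 0.48 with the stricter filter; the cause was not tested. In all, 19 pairs of list and setting had a median of the other sign, this one included, and apart from it the largest of these medians as deposited was -0.18 (ribosomal proteins). No paired analysis was possible because each group has 1 library. No setting separates the groups from the arrays they were measured on, and values near 5.49 carry little signal over background.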

Other observations

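Probes without a named gene were counted in the same way. Of 1477 that reached the expression minimum, 8.26% were higher in FVB/N by 2-fold or more and 5.15% lower. Lists not described above were counted at 1.5-fold. Hypoxia targets had 2 of 12 members higher and 3 lower, loop of Henle transport 1 of 9 higher and 0 lower, neutrophil markers 1 of 6 higher and 2 lower, liver markers 1 of 7 higher and 0 lower, and urothelial markers 2 of 5 higher and 0 lower. None of the 3 expressed T and B cell markers passed in either direction.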
